A study of Mus musculus with 3 samples.

Results

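MiR-210 is represented in the retina libraries by 2 mature miRNAs, miR-210-3p (mmu-miR-210-3p) and miR-210-5p (mmu-miR-210-5p), which are cut from opposite arms of a single hairpin. Both were chosen by name, and they are 2 of the 1915 mature miRNAs listed. The series held 3 small RNA libraries from the retina of C57BL/6 mice, taken at postnatal day 1 (P1), day 7 (P7) and day 17 (P17). Each library came from retinas of 5 eyes pooled as a single sample, and no age had a second library. The labels name no treatment and no genotype other than the strain. The libraries held 11426320 to 12759995 miRNA reads, and both arms had reads at every age. A difference between ages therefore has no replicate check. The intervals given below are 95% intervals of counting error only, and even that is a lower limit, because copies made by PCR could not be told from separate molecules.

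MiR-210 is the miRNA best known for its response to low oxygen. Under hypoxia the transcription factor HIF-1 is stabilised and activates the miR-210 gene, and the miRNA then lowers, among others, the iron-sulphur scaffold protein ISCU of the mitochondrion and the ephrin EFNA3, a guidance ligand on the cell surface. The mouse retina is born without blood vessels of its own. Vessels spread over its inner surface during the first postnatal week, driven by VEGF from hypoxic astrocytes, and dive into the deeper layers over the following weeks. The ages sampled thus run from a nearly avascular retina to a vascularised one, and the comparison shows how the level of miR-210 lay along that course. Oxygen itself was not measured in these samples.

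The 2 mature sequences are shown because the level of each, and the balance between them, carries the results. Capitals mark the seed, bases 2 to 8, which chooses the target mRNAs.

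miR-210-3p: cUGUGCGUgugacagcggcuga

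miR-210-5p: aGCCACUGcccaccgcacacug

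In the hairpin the 5p arm comes first, and both mature arms are in capitals below.

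Mir210 hairpin: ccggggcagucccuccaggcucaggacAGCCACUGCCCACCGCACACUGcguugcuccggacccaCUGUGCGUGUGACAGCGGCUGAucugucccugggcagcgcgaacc

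The sequences came from RefSeq on GRCm38.p6, the same build as mm10. The hairpin gene Mir210 (ENSMUSG00000065551) spans chr7:141221384-141221493 on the minus strand, with miR-210-3p at chr7:141221407-141221428 and miR-210-5p at chr7:141221445-141221466. GENCODE places no other gene over the hairpin, so that it lies in no annotated exon, intron or UTR of another gene. The nearest genes are Rassf7, 2726 bases away, and Phrf1, 7291 bases away, both on the plus strand. No other miRNA gene lies within 10 kb, so miR-210 has no annotated cluster partner. Each mature form is 22 bases long. The RefSeq table gave the sequence of 1679 mature mouse miRNAs, 1623 of which are listed in the libraries. Among these 1679, none shared the seed of either arm, and none shared bases 2 to 7. The closest other miRNA to miR-210-3p, aligned from the first base without gaps, was miR-7672-5p, identical at 15 of 22 positions. The seeds of the arms, UGUGCGU and GCCACUG, also differ from each other. Both arms are rich in G and C, with 63.6% for miR-210-3p and 68.2% for miR-210-5p against a median of 52.2% over all mature miRNAs. In the predicted fold, 16 of the 22 bases of miR-210-3p pair with bases of miR-210-5p.

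MiR-210-3p, the arm regarded as the working strand, was lower at each later age. The P1 library held 17663 of its reads, the P7 library 9625 and the P17 library 5062. In RPM, the reads scaled to a common total of miRNA reads, this was 1545.82 for P1 (Wilson interval 1523 to 1569), 754.31 for P7 (739 to 770) and 434.14 for P17 (422 to 446). The P1 library was the highest and the P17 library the lowest, and none of the 3 intervals overlapped. Relative to P1, the level at P7 was lower by a factor of 2.05 (exact interval of the ratio 2.00 to 2.10). From P7 to P17 it was lower by a further factor of 1.74 (1.68 to 1.80). From P1 to P17 the factor was 3.56 (3.45 to 3.67), a fall of 71.9% in its share of the miRNA reads. By abundance miR-210-3p held place 67 of 1169 detected miRNAs at P1, place 75 of 1047 at P7 and place 99 of 1045 at P17. It was thus a fairly abundant miRNA in every library.

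MiR-210-5p, the rarer passenger arm, stayed near a single level in RPM. It was read 213 times in the P1 library, 200 times in the P7 library and 177 times in the P17 library. In RPM this was 18.64 for P1 (16.3 to 21.3), 15.67 for P7 (13.6 to 18.0) and 15.18 for P17 (13.1 to 17.6). The 3 intervals overlapped. The ratio of P7 to P1 was 0.841 (0.690 to 1.02), and that of P17 to P7 was 0.969 (0.787 to 1.19). The ratio of P17 to P1 was 0.814 (0.663 to 0.999), which lay only just outside counting error. Each of these levels was far above the smallest that the depth could show, set at 3 reads or 0.235 to 0.263 RPM.

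**Figure D1:**
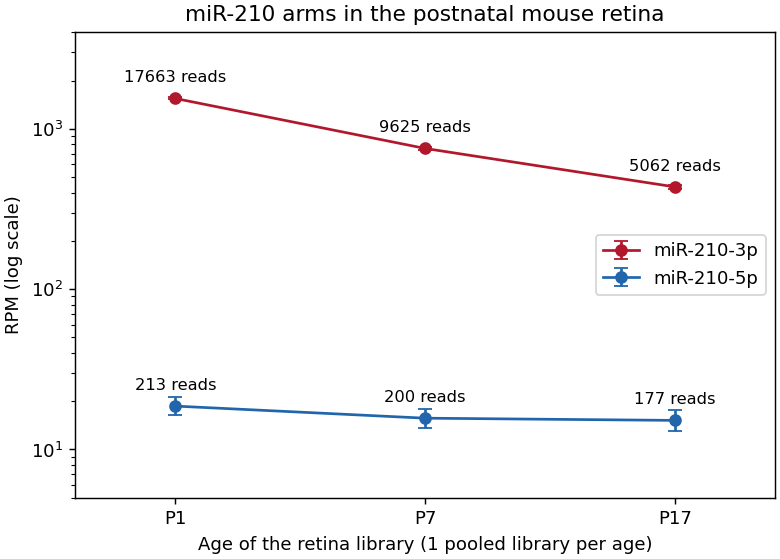
Level of miR-210-3p (red) and miR-210-5p (blue) in the retina library of each age, in RPM on a log axis, with Wilson 95% intervals of counting error and the read count above each point. MiR-210-3p stepped down from 1545.82 to 754.31 and 434.14 RPM, whereas miR-210-5p lay between 15.18 and 18.64 RPM.

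RPM is a share of the miRNA reads, so each change was read against the changes of all miRNAs. On the log2(RPM + 1) scale, miR-210-3p changed by -1.03 from P1 to P7, past the 2-fold criterion of the study. Over the 3 libraries 648 miRNAs averaged 1 RPM or more, and 290 of them were over 2-fold lower at this step (44.8%), and the median change was -0.87. The fall of miR-210-3p at this step was therefore close to that of the typical miRNA, with 276 miRNAs changing in a more negative way. MiR-210-5p changed by -0.24 at the same step, above the median by 0.63.

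From P7 to P17 neither arm passed the 2-fold criterion. MiR-210-3p changed by -0.80, whereas the median of all miRNAs was -0.05. Here 115 of the 648 miRNAs had a more negative change, and 75 were over 2-fold lower (11.6%). MiR-210-5p changed by -0.04, which was 0.01 above the median. Thus it was at the later step, and not the first, that miR-210-3p stood further from the typical miRNA, by -0.74 against -0.17.

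From P1 to P17 the change of miR-210-3p was -1.83 and the median of all miRNAs was -0.91. Over this span 303 miRNAs were over 2-fold lower (46.8%), miR-210-3p among them, and 169 had a more negative change than it. MiR-210-5p changed by -0.28, and 438 miRNAs had a more negative change.

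**Figure D2:**
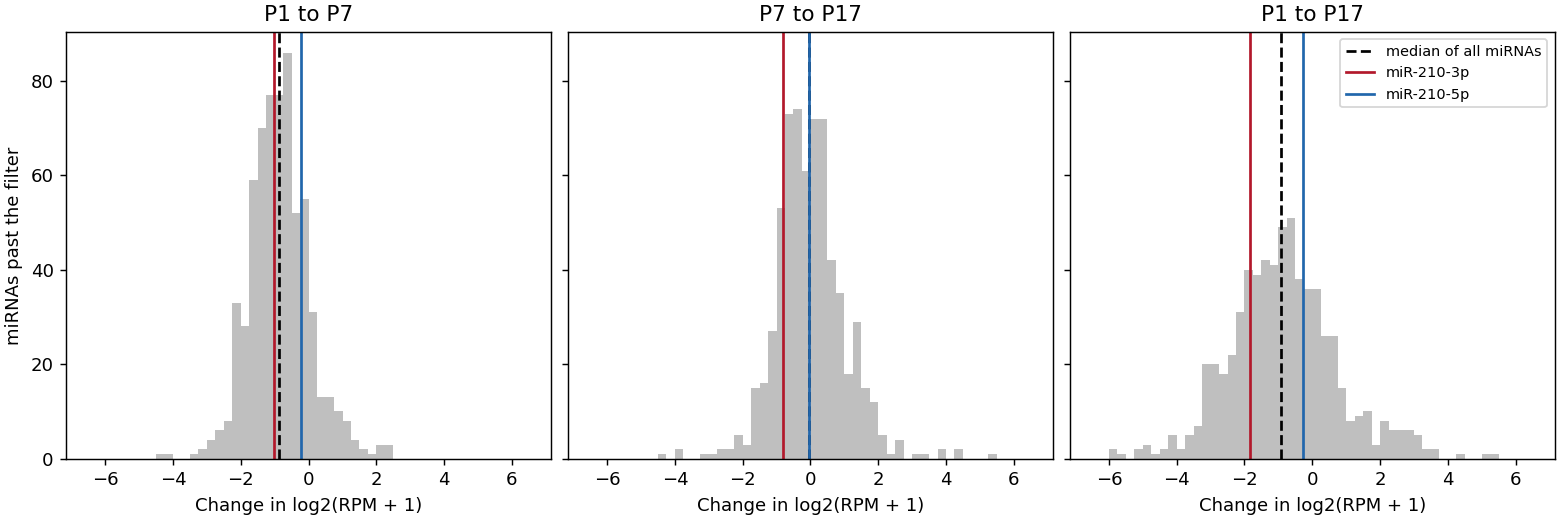
Histograms of the change in log2(RPM + 1) of 648 miRNAs at each step, with lines for miR-210-3p (red), miR-210-5p (blue) and the median of all miRNAs (dashed black). From P1 to P7 miR-210-3p lay near the median of -0.87, and from P7 to P17 it lay at -0.80 against a median of -0.05.

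The size of the first step depended on how the libraries were scaled. Median-of-ratios size factors centre the change of the typical miRNA near 0. With them miR-210-3p changed by -0.074 from P1 to P7, by -0.71 from P7 to P17 and by -0.79 from P1 to P17. TMM factors gave -0.049, -0.73 and -0.78. When the 10 most abundant miRNAs of each library were left out of the totals, the changes were -0.41, -1.04 and -1.45. All 5 scalings thus placed miR-210-3p lower at P17 than at P7, by 0.71 to 1.04 on the log2 scale, while the change from P1 to P7 ranged from -1.03 to -0.049. For miR-210-5p the change from P1 to P7 and from P1 to P17 was negative with RPM and positive under each of the other scalings. With RPM the change from P1 to P7 lay within counting error, with an interval of the log2 ratio of -0.54 to 0.035. No interval was computed under the other scalings. The change of miR-210-5p from P1 to P17 was 0.70 with size factors and 0.081 without the most abundant miRNAs. After subtraction of the median change of all miRNAs, miR-210-3p was at -0.92 from P1 to P17 with RPM and at -0.79 with size factors, and miR-210-5p at 0.63 and 0.70.

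**Figure D3:**
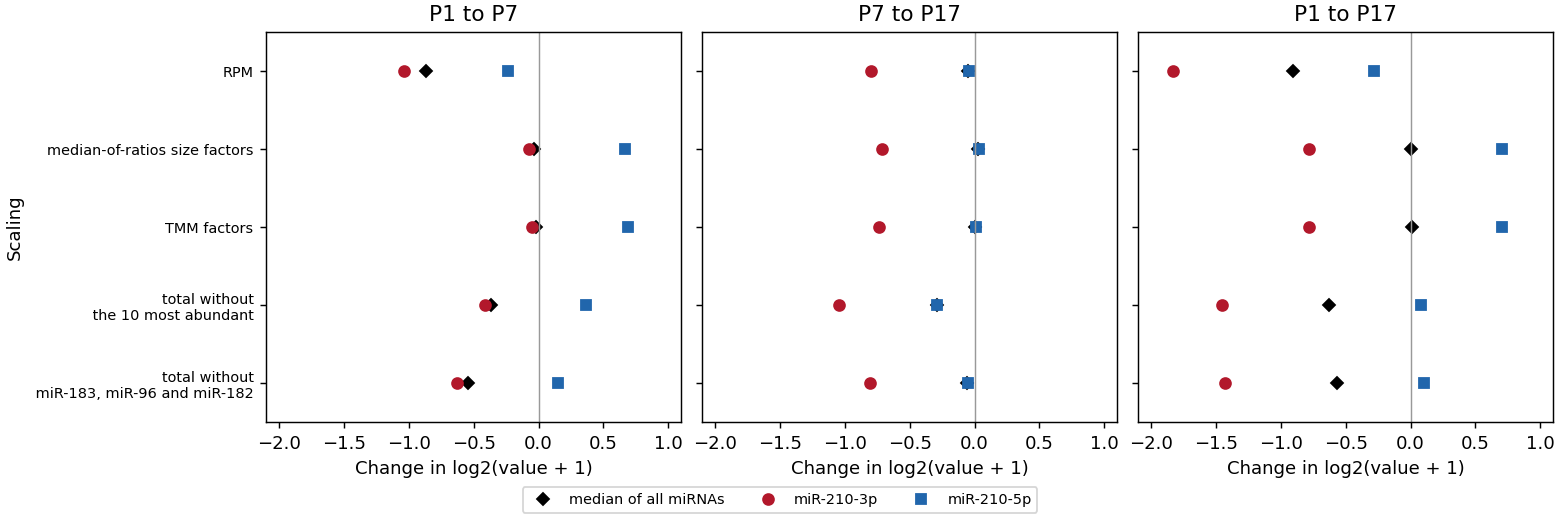
Change of miR-210-3p (red circles), miR-210-5p (blue squares) and the median of all miRNAs (black diamonds) at each step under 5 scalings of the libraries, as a difference in log2(value + 1). At P7 to P17 miR-210-3p lay between -1.04 and -0.71 under every scaling, whereas at P1 to P7 it followed the median.

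The ratio between the arms does not depend on the scaling, since both are counted in the same library. At P1 there were 82.9 reads of miR-210-3p per read of miR-210-5p (exact interval 72.4 to 95.4). At P7 the ratio was 48.1 (41.8 to 55.6), and at P17 it was 28.6 (24.6 to 33.4). The ratio was lower at each later age, and none of the 3 intervals overlapped. Put as a share of the reads of both arms, miR-210-5p took 1.19% at P1 (1.04 to 1.36), 2.04% at P7 (1.77 to 2.33) and 3.38% at P17 (2.91 to 3.90). The ratio was lower by a factor of 1.72 at the first step (1.41 to 2.10) and of 1.68 at the second (1.36 to 2.08). From P1 to P17 the factor was 2.90 (2.36 to 3.56). The 3p arm thus kept 96.6% of these reads even at P17.

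Arm ratios of other hairpins also moved between these libraries. Both arms passed the filter and had reads at P1 and P17 in 190 hairpins. In these the change in log2 ratio of 3p to 5p from P1 to P17 had a median of -0.16, and the middle 90% ran from -1.77 to 1.90. That of miR-210 was -1.54, with 18 hairpins at a more negative value, so it lay inside this range. In the level of the ratio miR-210 was among the most 3p-biased hairpins at P1, with 8 of the 190 above it, and 22 of 191 lay above it at P17. The hairpins whose change was nearest to that of miR-210 were miR-181d (-1.50), miR-1306 (-1.61) and miR-151 (-1.45). Of these, miR-151 is also a 3p-biased hairpin, with 21813 reads of its 3p arm and 754 of its 5p arm at P1, and 6956 and 657 at P17. In miR-181d the 5p arm dominates, with 74060 reads at P1, and its 3p arm had only 10 reads at P17. The same size of change therefore arose in hairpins of either bias.

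**Figure D4:**
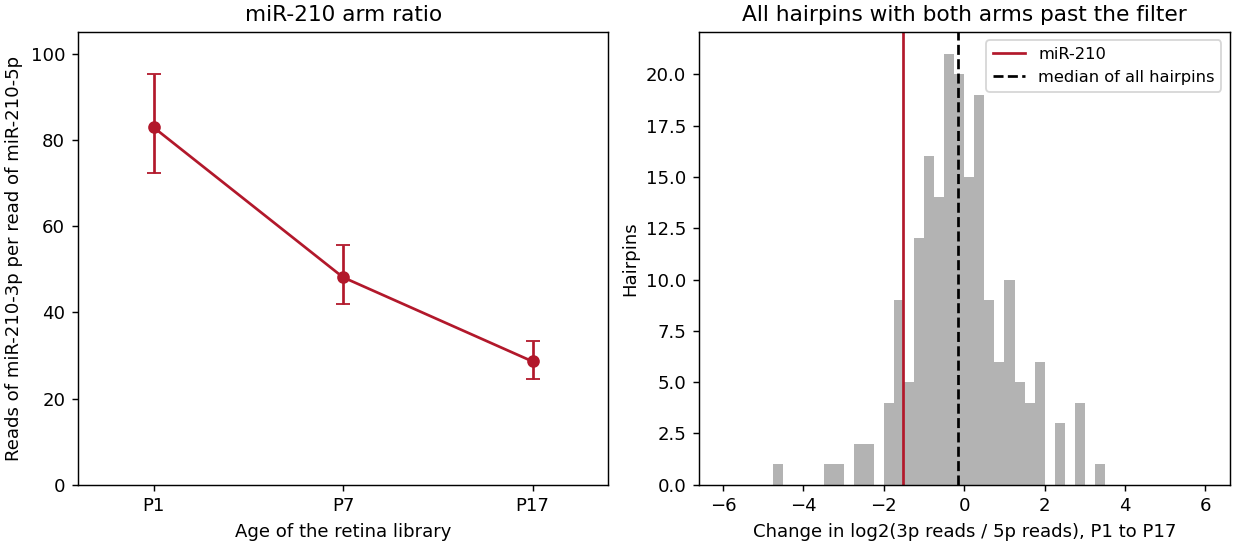
Left, reads of miR-210-3p per read of miR-210-5p at each age, with exact 95% intervals of counting error. Right, change in the log2 ratio of 3p to 5p reads from P1 to P17 for 190 hairpins; miR-210 (red line) lay at -1.54 and the median (dashed) at -0.16.

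Other miRNAs known as induced by low oxygen took varied courses. A list of 14 such miRNAs was taken from general knowledge, and all 14 passed the filter. It holds miR-21a-5p, miR-23a-3p, miR-23b-3p, miR-24-3p, miR-26a-5p, miR-26b-5p, miR-27a-3p, miR-103-3p, miR-107-3p, miR-155-5p, miR-181a-5p, miR-181b-5p, miR-181c-5p and miR-322-5p. From P1 to P7, 2 of the 14 were over 2-fold lower and 0 were higher by that much, against 44.8% of all miRNAs lower and 3.09% higher. The median change of the list was -0.37. From P7 to P17, 1 was lower and 2 were higher by more than 2-fold, against 11.6% of all miRNAs lower and 14% higher, and the list had a median of 0.27. From P1 to P17, 5 were over 2-fold lower and 0 higher, against 46.8% of all miRNAs lower and 10.5% higher. The median of the list over this span was -0.03, compared with -0.91 for all miRNAs. With size factors the median was 1.01 for the list and 0.007 for all miRNAs. With RPM the members ran from miR-322-5p, the mouse form of human miR-424, at -1.42 to miR-23a-3p at 0.96.

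Set against each of these 14 within the same library, miR-210-3p was lower at P17 than at P1 every time. The log2 ratio of miR-210-3p reads to reads of the listed miRNA changed by -2.81 to -0.33, with a median of -1.80, and the interval of counting error lay below 0 for 14 of 14. The direction for all 14 follows from the changes in log2(RPM + 1), where the lowest of the list was -1.42 and miR-210-3p was -1.83. From P1 to P7 the ratio was lower for 13, with the interval below 0 for 11. It was higher for 1, miR-107-3p, against which miR-210-3p was higher by 0.34 (0.27 to 0.42). From P7 to P17 the ratio was lower for 13, and for miR-322-5p it was higher by 0.30 with an interval of -0.02 to 0.63. Lower ratios were common among miRNAs of any kind, and the share of all miRNAs with an interval below 0 was not computed. Of all 648 miRNAs past the filter, 371 had a change in log2(RPM + 1) above that of miR-210-3p from P1 to P7. From P7 to P17 this held for 532, and from P1 to P17 for 478. MiR-21a-5p, an abundant miRNA raised in many stress and growth states, had levels of 6526, 5707 and 5148 RPM at the 3 ages. There were 0.237 reads of miR-210-3p per read of miR-21a-5p in the P1 library, 0.132 in that of P7 and 0.0843 in that of P17. MiR-103-3p, which shares its seed with miR-107-3p, was the member nearest to miR-210-3p at the first step. MiR-103-3p had 5832, 2904 and 2453 RPM in age order, and the log2 ratio of miR-210-3p to it changed by -0.03 (-0.07 to 0.01) from P1 to P7.

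The miRNAs of vessel cells were higher in RPM at each later age. MiR-126a, made by endothelial cells from an intron of Egfl7, had 1225, 3547 and 8290 RPM of its 3p arm in age order. At P1 there were 1.26 reads of miR-210-3p per read of miR-126a-3p, and at P7 there were 0.213. At P17 there were 0.0524, lower by a factor of 24.1 than at P1. MiR-143-3p, a miRNA of smooth muscle and pericytes, had 189.56, 363.17 and 1440 RPM, and the ratio of miR-210-3p to it was lower by a factor of 27.0 over the same span. All 4 vessel miRNAs examined (miR-126a-3p, miR-126a-5p, miR-143-3p and miR-145a-5p) gave lower ratios at both steps. MiR-126a-3p and miR-126a-5p are arms of the same hairpin, so they are not separate results. Of all 648 miRNAs, 371 and 532 had a change above that of miR-210-3p at these steps, so lower ratios were common. In whole retina, fewer cells that make a miRNA and less of it per cell cannot be told apart, and the part of cell composition in the fall of miR-210-3p was not tested.

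**Figure D5:**
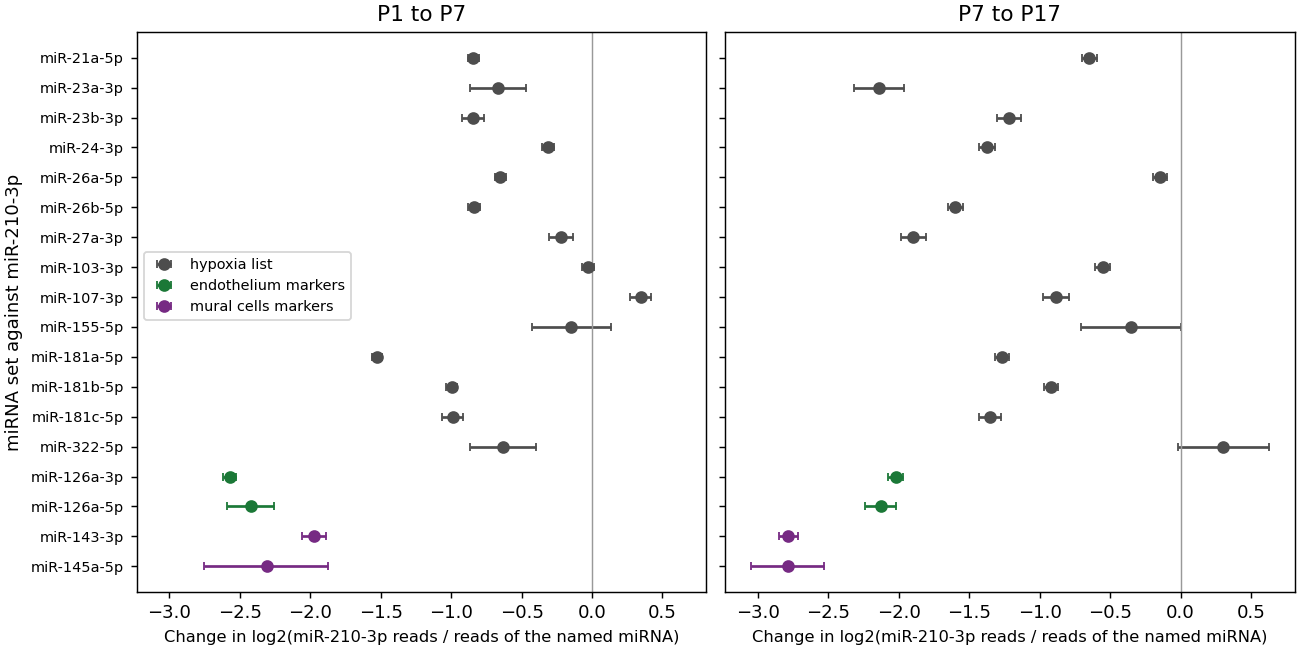
Change in the log2 ratio of miR-210-3p reads to reads of each named miRNA in the same library, from P1 to P7 (left) and from P7 to P17 (right), with exact 95% intervals of counting error. Points left of 0 mean that miR-210-3p was lower relative to that miRNA. This held for 13 of 14 of the hypoxia list (grey) at each step, with intervals below 0 for 11 and 13. It also held for all 4 vessel miRNAs (green, purple), 2 of which are arms of the same hairpin. The share of all miRNAs with an interval below 0 was not computed. Of all 648 miRNAs, 371 and 532 had a change above that of miR-210-3p at these steps.

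Markers of other tissue were checked beside these values. The retina and photoreceptor miRNAs miR-183-5p, miR-96-5p, miR-182-5p, miR-124-3p and miR-9-5p together took 223656 to 432211 RPM. At P1, 144259 of the 223656 RPM was miR-9-5p. From P1 to P17 miR-9-5p changed by -0.96, whereas the other 4 were higher at P17. The sum therefore does not by itself identify the tissue at P1. The miRNAs taken as pigment epithelium markers, miR-204-5p and miR-211-5p, summed to 15211, 7226 and 14334 RPM in age order. Which cells of the samples they came from was not tested. Their courses differed, with 14661.5, 6967 and 9019 RPM for miR-204-5p and 550, 259 and 5315 RPM for miR-211-5p. The lens and cornea pair miR-184-3p and miR-205-5p summed to 103, 119 and 570 RPM, of which miR-205-5p gave 2.71, 0.31 and 0.69. The muscle pair miR-1a-3p and miR-133a-3p summed to 117, 67.2 and 223 RPM. Red blood cell miRNAs (miR-451a, miR-144-3p, miR-486a-5p) summed to 161, 116 and 157 RPM, most of it miR-486a-5p. MiR-451a alone had 45.5, 11.7 and 27.9 RPM. Those of microglia and leukocytes (miR-223-3p, miR-142a-3p, miR-150-5p) summed to 7.62, 10.5 and 26.8 RPM. Liver miR-122-5p stayed between 2.27 and 5.78 RPM. The part of these cells in the level of miR-210 was not tested.

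On the log2(RPM + 1) scale a few miRNAs had a course much like that of each arm over the 3 libraries. Likeness was the distance between the 2 step changes in log2(RPM + 1). For miR-210-3p the nearest were miR-452-5p (distance 0.07), miR-1930-5p (0.08), miR-181d-5p (0.11), miR-3474 (0.13) and miR-342-5p (0.15). Of these, miR-181d-5p alone was of high abundance, with 6482, 3412 and 1997 RPM in age order. The 2 nearest were rare, miR-452-5p with 4.11, 1.41 and 0.34 RPM and miR-1930-5p with 3.15, 1.1 and 0.26 RPM. In RPM both fell more steeply than miR-210-3p. They lie near it because the added 1 RPM shrinks changes at such low levels. For miR-210-5p they were miR-30e-5p (0.05), miR-5620-5p (0.06), miR-3078-5p (0.11), miR-21a-5p (0.11) and miR-362-3p (0.12). The passenger arm therefore ran beside miRNAs such as miR-30e-5p, at 6111, 5374 and 5197 RPM, that also changed little in RPM. With 3 points per miRNA such likeness is common and is given as a description.

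MiRNAs of similar abundance took varied courses. By mean RPM miR-210-3p held place 78, between miR-484 and miR-488-3p. MiR-488-3p had 1456, 791 and 434 RPM in age order, levels near those of miR-210-3p at each age. MiR-484 went from 1756 to 602 and 383 RPM, and miR-192-5p from 1317 to 941 and 634. MiR-708-3p, miR-411-5p and miR-300-3p differed from these after P7, with changes of 0.01, 0.08 and 0.56 from P7 to P17. Around miR-210-5p, at place 381, miR-16-2-3p, miR-467a-3p, miR-467d-3p, miR-1306-5p and miR-155-5p had lower RPM at each step, with changes of -2.73 to -1.25 from P1 to P17. Of the 6 neighbours of miR-210-5p, miR-1224-5p alone lay close to its P1 level at P17, with 20.58 RPM against 21.79, after 6.82 RPM at P7. MiR-467a-3p and miR-467d-3p had the same values in every library, so they give 1 level and not 2.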

How the data were processed

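Small RNA libraries from 3 ages of mouse retina, 1 per age, were analysed from the deposited tables. Before deposit the authors trimmed adaptors, discarded reads of low quality and mapped the remainder to mm10. The paper names HISAT2, whereas the submitters' processing notes list BWA and FastQC, and the miRNA annotation and counting rule are not given in the sources used here. The authors deposited a raw read count for each mature miRNA, together with its RPM. The deposited RPM equals the count divided by all miRNA counts of that library, to within 0.0192 RPM.

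Groups followed the age labels. Changes were differences in log2(RPM + 1), a scale which understates those of rare miRNAs, over the 648 miRNAs that averaged 1 RPM or more. No test was run, since a single library per age gives no spread, and the adjusted p-value criterion of the paper was not used. Only its 2-fold criterion was applied. Levels carry Wilson intervals, and ratios of 2 libraries or of 2 miRNAs carry exact binomial or conditional intervals. Of 1679 named mature sequences, 1623 matched a miRNA of the tables. The hairpin was folded with RNAfold 2.7.2.

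Named miRNAs were both arms, the hypoxia, HIF1A-regulator and cell marker lists, the 5 nearest courses and 3 abundance neighbours on each side of each arm, and the 3 hairpins nearest in arm change. The members and lists were chosen with earlier results of these data known, and the ratios within a library were chosen after the values were seen. Alternatives were 2 other pseudocounts and none, 2 other filters, 4 other scalings, 2 other fold criteria and 0.5 read added to each arm. Only the 2-fold calls and the interval of the ratio of 2 libraries were tried on simulated read counts, which had no spread between libraries. The arm ratios, the other scalings, the ratios within a library and the lists were not tried in this way. TMM factors came from edgeR 4.0.16 in R 4.3.3. All else was done in Python 3.11.15 with scipy 1.17.1, pandas 2.3.3 and numpy 2.4.6, and figures were drawn with matplotlib 3.10.9.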

Additional observations from a re-analysis of the deposited data

How the results depend on the processing

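The other scalings moved the change of both arms beyond counting error at the first step and over the whole span. At the second step, size factors, TMM factors and totals without the most abundant miRNAs also moved that of miR-210-3p. The change of miR-210-5p at the second step stayed within counting error. Every value below is on the same scale as in the report, with the first step, the second step and the whole span in that order where 3 are given. For miR-210-3p, RPM gave -1.03, -0.80 and -1.83, median-of-ratios size factors -0.074, -0.71 and -0.79, and TMM factors -0.049, -0.73 and -0.78. Totals that left out the 10 top miRNAs of each library (13 in all) gave -0.41, -1.04 and -1.45. Totals that left out the miR-183, miR-182 and miR-96 hairpins gave -0.63 from P1 to P7 and -1.43 from P1 to P17. For miR-210-5p the changes from P1 to P7 and from P1 to P17, -0.24 and -0.28 with RPM, were 0.67 and 0.70 with size factors and 0.69 and 0.70 with TMM factors. Without the most abundant miRNAs they were 0.37 and 0.081, and without those 3 hairpins they were 0.15 and 0.10. The median of the hypoxia list from P1 to P17 was -0.03 with RPM, 1.01 with size factors and 1.02 with TMM factors. That of all miRNAs was -0.91, 0.007 and 0.007 in the same order. These scalings shift all miRNAs of a library alike, and which of them is nearer to the amount per retina was not tested.

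The numbers of miRNAs over 2-fold lower and higher from P1 to P7 were 290 and 20 with RPM, 71 and 62 with size factors, 69 and 63 with TMM factors, 149 and 49 without the most abundant miRNAs and 185 and 39 without those 3 hairpins. From P1 to P17 they were 303 and 68 with RPM, and 155 and 165 with either size factors or TMM factors, so that falls made up 81.7% of these changes with RPM and 48.4% with either of those. From P7 to P17 the number lower was 75 with RPM, 149 without the most abundant miRNAs and 44 with a pseudocount of 5 RPM. A 4-fold criterion left 56 lower and 6 higher at the first step, 14 and 17 at the second, and 141 and 38 over the whole span. A 1.5-fold criterion gave 41 higher at the first step. At the second step it gave 177 lower and 147 higher, against 75 and 91 at 2-fold. Of 17 values for the place of miR-210 among all miRNAs or hairpins, 5 moved beyond the counting interval of that share. From P1 to P17 the share with a more negative change than miR-210-3p was 26.1%, and it was 31.5% and 16.2% with pseudocounts of 0.1 and 5 RPM, 30.7% without the most abundant miRNAs and 8.83% with no filter on low values. For miR-210-5p it was 67.6%, and 32.7% with no filter.

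Pseudocounts of 0.1 and 5 RPM or none left each change of both arms within its counting error, and 0.5 read added to each arm did the same for the arm ratios. Depth limits miR-210-5p, whose 177 to 213 reads set the width of the arm ratio intervals. No paired analysis was possible because there is 1 library at each age, and for the same reason no library could be left out.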

Other observations

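MiRNAs known to act on the mRNA of HIF1A, the oxygen-regulated subunit of HIF-1 upstream of miR-210, mostly had a steeper course than miR-210-3p. A set of 5 was taken from general knowledge, namely miR-17-5p, miR-18a-5p, miR-20a-5p, miR-20b-5p and miR-199a-5p. The paper itself reports HIF1A as a target of miR-18a-5p. It also singles out miR-18a-5p as a miRNA that fell over these ages, so that fall is not a separate finding. All 5 passed the filter. From P1 to P17 4 of them, miR-18a-5p included, were over 2-fold lower in RPM, where 46.8% of all miRNAs were. The median change of the 5, -5.52, is that of miR-18a-5p itself. The others changed by -5.97 (miR-20a-5p), -5.83 (miR-17-5p), -3.56 (miR-20b-5p) and -0.64 (miR-199a-5p), and the median of all miRNAs was -0.91. There were 0.672 reads of miR-210-3p per read of miR-17-5p in the P1 library, 1.24 in that of P7 and 11.0 in that of P17. Against miR-18a-5p the ratio was 9.05, 22.5 and 158, where miR-18a-5p had 32 reads at P17. The exception was miR-199a-5p, a miRNA of mesenchymal cells, which had 43.2, 39.2 and 27.4 RPM in age order. The ratio of miR-210-3p to it was 35.8 at P1 and 15.9 at P17, a log2 change of -1.17 (exact interval -1.39 to -0.96). These ratios were computed after the values were seen, and 3 of the 5 (miR-17-5p, miR-18a-5p and miR-20a-5p) are made from a single cluster transcript.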
